A study of Rattus norvegicus with 4 samples.

Results

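The genes described here encode 10 members of the BCL2 family, the proteins that decide whether the outer mitochondrial membrane stays sealed or opens in a cell under stress. They were chosen by gene symbol, with older symbols of the same gene allowed, from 18646 named genes on the array: the survival genes Bcl2, Bcl2l1 (BCL-XL) and Mcl1, the effector genes Bax and Bak1, and the BH3-only genes Bcl2l11 (BIM), Bid, Bad, Bbc3 (PUMA) and Pmaip1 (NOXA). The symbol column gave 9 of the 10. Bbc3 had no entry there and was found through the RefSeq accession and description of its probe set. The cells were INS-1, an insulin-secreting line from a radiation-induced insulinoma of an NEDH rat, grown in RPMI medium with 10% serum. Forskolin, which activates adenylyl cyclase and raises cAMP, was given at 10 µM in DMSO for 2 h or for 16 h, and vehicle cells received DMSO for the same times. Of these 4 groups each had 1 array (Affymetrix rat gene array), so single differences could not be checked against replicates and have no p-value.

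Survival proteins of this family hold the effectors BAX and BAK in check. BH3-only proteins are the stress sensors of the family: they bind the survival proteins in a groove, and some also activate BAX and BAK directly, which then form pores that let cytochrome c out and start the caspases. In beta cells the family has been studied mainly in endoplasmic reticulum stress, glucose toxicity and cytokine injury, and cAMP-raising hormones such as the incretins are known there as survival signals.

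Values are log2 signals, and a difference is the forskolin minus the vehicle signal of the same time, so 1 unit is 2-fold. The SD of the difference between both vehicle arrays over 9323 compared genes, 0.25 log2 units, serves only as a scale, since those arrays also differ in time. Signals of all pairs of arrays correlated with Pearson coefficients of 0.985 to 0.993. Of the beta-cell markers, Ins1 lay between 13.23 and 13.32 and Ins2 between 12.08 and 12.31. Of the 7 beta-cell markers measured, 2 were 2-fold lower with forskolin at 2 h and 1 at 16 h. Neurod1 had log2 differences of -1.16 and -1.58, Nkx6-1 of -1.59 and -0.83, and Slc30a8 of -0.34 and -0.46. Iapp had 0.01 and 0.36, and Pcsk1 had 0.36 and -0.16. Values above 0 were present in 3 of the 7 at 2 h and in 1 at 16 h. With forskolin Nkx6-1 was at background (3.84 and 4.04), since the negative controls had upper quartiles of 4.57 and 4.37 on those arrays. This limits what its differences can show. Whether these shifts in beta-cell markers bear on the family's differences was not tested. Pdx1 had no named probe set. Among markers of other islet and exocrine cells, Gcg, the glucagon gene, had signals of 11.76 to 12.56, and its level with forskolin at 16 h was the highest. Gcg alone among the 8 measured was above the 95th percentile of the negative controls, and Sst, for example, lay at 3.28 to 3.38. The 5 leukocyte markers measured stayed at or below 2.89. Genes entered the comparison where their highest signal was at least 4.854, the median over genes, a level that 26.8% of the negative control probe sets would also have reached. All members but Pmaip1 were compared.

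At 2 h, the BH3-only gene Bcl2l11 was 2.67-fold higher and the survival gene Bcl2l1 2.14-fold lower with forskolin than with vehicle. Bcl2 lay 1.71-fold lower, while the third survival gene, Mcl1, had a log2 difference of 0.29. At 16 h, 0 of the members differed by 2-fold: Bcl2l1 remained 1.58-fold lower, Bcl2l11 was 1.34-fold higher, and Mcl1 and Bid were each 1.41-fold higher. Thus 2 of 9 compared members passed 2-fold at 2 h, where 3.5% of all compared genes did (2.09% higher and 1.41% lower), and 0 of 9 at 16 h, where 4.34% did. The count of 2 became 1, Bcl2l11, under other scalings or another choice of probe set. A stricter filter on the highest signal also left Bcl2l11 alone, but cannot test either call. Bcl2l11 passed it only through its forskolin signal at 2 h (6.49), and Bcl2l1 (at most 6.15) was removed by its level. At 1.5-fold the members numbered 3 at 2 h, with Bcl2 added, against 13.4% of compared genes, and 1 at 16 h, Bcl2l1, against 14.5%. Between the vehicle arrays 0 of 9 members and 0.118% of compared genes differed by 2-fold. With so few members neither count can be called particular to the family. The plot of signals by array shows each gene on all 4 arrays.

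**Figure D1:**
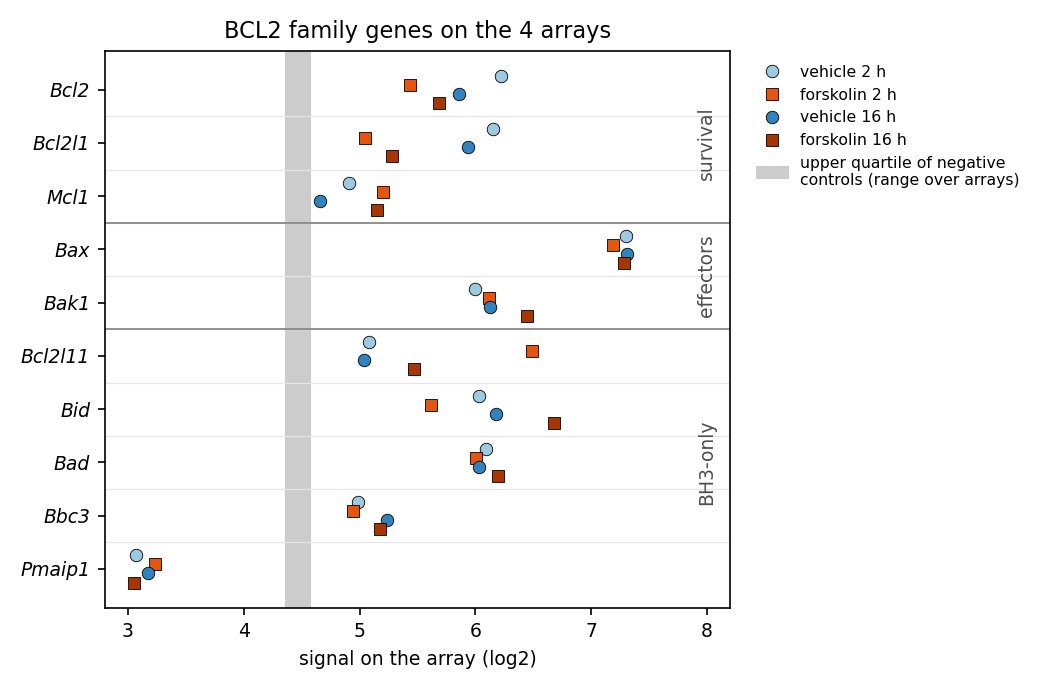
Log2 signal (horizontal axis) of each of the 10 genes on the 4 arrays, circles for vehicle and squares for forskolin, 1 array per group and therefore no error bars; the grey band is the upper quartile of the negative controls over the arrays. Bcl2l11 with forskolin at 2 h (6.49) stands apart from its other 3 signals (5.04 to 5.47), and all signals of Pmaip1 lie below the band.

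The stretches before the start sites of Bcl2l11, Mcl1, Bcl2 and Bcl2l1, which with Bax are the members whose forskolin signals at both times lay on the same side of both vehicle signals, are shown because cAMP acts on many genes through promoter elements. They hold 250 bases, 5′ to 3′ on the gene's strand, from the RefSeq promoter table (GRCr8). Capitals mark matches, on either strand, to the full cAMP response element TGACGTCA, its core TGACG, the forkhead (FOXO) site GTAAACA and the CHOP and ATF4 composite TGATGNAA.
Bcl2l11, chr3:135819792-135820041, plus strand: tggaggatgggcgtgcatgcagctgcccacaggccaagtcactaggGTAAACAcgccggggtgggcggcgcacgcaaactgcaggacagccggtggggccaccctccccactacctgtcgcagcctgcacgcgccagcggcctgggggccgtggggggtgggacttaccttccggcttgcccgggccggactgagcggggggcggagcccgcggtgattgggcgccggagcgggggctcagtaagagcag
Mcl1, chr2:185907918-185908167, plus strand: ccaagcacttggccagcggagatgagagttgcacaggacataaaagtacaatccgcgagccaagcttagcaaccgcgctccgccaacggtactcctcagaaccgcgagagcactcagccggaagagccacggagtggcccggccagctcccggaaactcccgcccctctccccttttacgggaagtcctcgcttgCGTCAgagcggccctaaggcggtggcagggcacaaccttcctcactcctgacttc
Bcl2, chr13:23366901-23367150, minus strand: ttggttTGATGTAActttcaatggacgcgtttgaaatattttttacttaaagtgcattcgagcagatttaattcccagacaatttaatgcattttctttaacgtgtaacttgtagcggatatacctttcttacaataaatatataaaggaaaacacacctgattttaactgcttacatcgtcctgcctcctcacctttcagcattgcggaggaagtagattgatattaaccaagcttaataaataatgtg
Bcl2l1, chr3:161764776-161765025, minus strand: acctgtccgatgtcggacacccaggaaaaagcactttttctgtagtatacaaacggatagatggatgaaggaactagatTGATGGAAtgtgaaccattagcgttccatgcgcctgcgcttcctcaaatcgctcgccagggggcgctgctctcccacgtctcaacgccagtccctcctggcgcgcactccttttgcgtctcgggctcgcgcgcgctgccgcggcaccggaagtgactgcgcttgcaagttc
The table held 11 such windows for 8 members, 4 of them for Bcl2l1, which has several start sites. The window printed for Bcl2l1 is the most upstream. The full element TGACGTCA was in 0 of the 11 windows and in 1.59% of all 33469 windows of this length. Its core was present in Mcl1, 55 to 51 bases before the start, and in Pmaip1 at 2 positions, against 18.2% of all windows. The forkhead letters stood in Bcl2l11, 204 to 198 bases before the start, and in Bad, against 3.21% of all windows. The CHOP and ATF4 composite was found in Bcl2 and in 3 of the 4 windows of Bcl2l1, of which 2 overlap and share the same match, against 3.4% of all windows. A match describes letters in the sequence and not binding, and letters outside these windows were not searched.

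The survival genes did not move alike. Bcl2l1 encodes BCL-XL, a survival protein of the outer mitochondrial membrane. Its signal was 6.15 with vehicle and 5.05 with forskolin at 2 h, and 5.94 and 5.28 at 16 h. Both forskolin arrays were below both vehicle arrays. The log2 difference was -1.09 at 2 h, lower than in all but 0.95% of compared genes, and -0.66 at 16 h, where 5.32% of compared genes lay lower. Between the vehicle arrays Bcl2l1 differed by -0.21.

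The gene has another probe set, which gives a smaller difference. Probe set 10850826, designed on transcript variant 2, had signals of 5.77 with vehicle and 5.10 with forskolin at 2 h and of 5.82 and 5.35 at 16 h. Its log2 differences were -0.68 and -0.47, against those of probe set 10724228, designed on variant 4, given above. Both probe sets were lower with forskolin at both times, but the 2-fold call at 2 h belongs to 1 of them. The mean of both gave -0.89, and another scaling of the arrays gave -0.94 (cyclic loess) or -0.95 (a further quantile normalization) for the probe set used. All genes shifted under these scalings: the median difference of compared genes at 2 h was -0.10 as deposited, 0.01 after cyclic loess and -0.03 after the further quantile normalization.

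**Figure D2:**
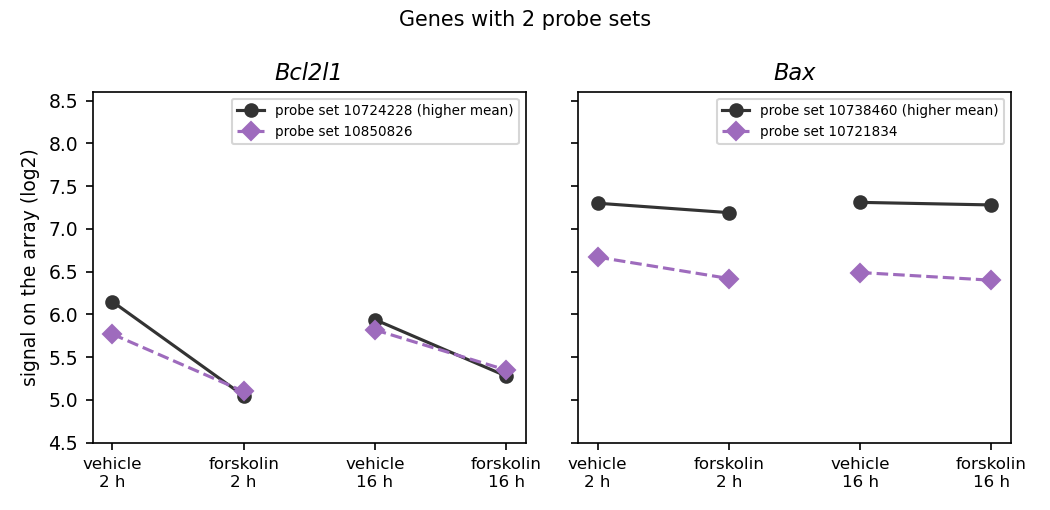
Log2 signal (vertical axis) on the 4 arrays for both probe sets of Bcl2l1 and of Bax; lines join vehicle to forskolin of the same time, 1 array per point. For Bcl2l1 both lines slope down at both times, more steeply for the probe set of higher mean (-1.09 and -0.66) than for the other (-0.68 and -0.47), and for Bax both pairs of lines are nearly level.

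Bcl2, the founding survival gene of the family, was lower mainly at the short time. Its signal was 6.22 with vehicle and 5.44 with forskolin at 2 h, and 5.86 and 5.69 at 16 h. The log2 difference of -0.77 at 2 h lay above 3.74% of compared genes, and that of -0.17 at 16 h above 27.85%. The vehicle arrays themselves differed by -0.36, the largest such shift among the members, and only the earlier forskolin difference exceeded it in size.

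Mcl1 encodes a short-lived survival protein that cells replace continuously. Its signals were 4.91 with vehicle and 5.20 with forskolin at 2 h, and 4.66 and 5.15 at 16 h. Both forskolin arrays were above both vehicle arrays, with log2 differences of 0.29 and 0.49, higher than in 88.27% and 89.12% of compared genes. All 4 signals were close to the upper quartile of the negative controls (4.37 to 4.57), which limits what these differences can show. Mcl1 and Bcl2l1 therefore went opposite ways on the same arrays: relative to Bcl2l1, Mcl1 was 2.61-fold higher at 2 h and 2.23-fold higher at 16 h, while the vehicle arrays differed by -0.04 log2 units in this respect. A comparison of this kind within an array does not depend on how the arrays were scaled by a constant.

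The effector genes showed little difference. Bax, whose product moves from the cytosol to the mitochondrion when activated, had signals of 7.30 with vehicle and 7.19 with forskolin at 2 h and of 7.31 and 7.28 at 16 h. The log2 differences were -0.12 and -0.03, and the former was 0.01 after cyclic loess. Its other probe set, 10721834, had differences of -0.25 and -0.10. Bax was the only member above the 95th percentile of the negative controls (6.42 to 6.65) on all 4 arrays. Bak1, whose product sits in the mitochondrial membrane at rest, had signals of 6.0 and 6.12 at 2 h and of 6.13 and 6.45 at 16 h, vehicle before forskolin. Its differences of 0.12 and 0.32 compare with 0.12 between the vehicle arrays.

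Bcl2l11 encodes BIM, a BH3-only protein that binds all the main survival proteins and activates BAX and BAK. It had the largest difference among the members. Its signal was 5.08 with vehicle and 6.49 with forskolin at 2 h, and 5.04 and 5.47 at 16 h. These signals, like those of Bcl2 and Bcl2l1, lay above the upper quartile but below the 95th percentile of the negative controls on all 4 arrays. The vehicle arrays agreed within 0.04 log2 units, and the forskolin arrays differed from each other by -1.03. The difference at 2 h, 1.41, was higher than in 98.88% of compared genes, and it became 1.57 after cyclic loess and 1.52 after the further quantile normalization. At 16 h the difference was 0.43, higher than in 86.32% of compared genes. The later minus the earlier difference was -0.99, and 2.38% of compared genes had a value as low or lower. With 1 array per group this change over time was not tested. The promoter window of Bcl2l11 printed above holds the forkhead letters. It holds neither the cAMP response element, full or core, nor the CHOP and ATF4 composite.

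Set against the survival genes on the same arrays, Bcl2l11 was 5.69-fold higher relative to Bcl2l1 and 4.56-fold higher relative to Bcl2 at 2 h. At 16 h these values were 2.13-fold and 1.51-fold. Between the vehicle arrays they were 1.12-fold and 1.25-fold. Bcl2l11 and Bcl2l1 had the highest and the lowest difference of the 10 members at 2 h (1.41 and -1.09). The 5.69-fold value is therefore the full range of the members at that time. The other probe set of Bcl2l1 (-0.68 and -0.47) would give smaller values relative to Bcl2l1. Mcl1, the remaining survival gene, had log2 differences of 0.29 and 0.49, against 1.41 and 0.43 for Bcl2l11. Relative to Mcl1, Bcl2l11 was thus higher at 2 h but not at 16 h. The scatter of both differences shows Bcl2l11 far to the right and Bcl2l1 to the lower left, with most other members inside the cloud of compared genes.

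**Figure D3:**
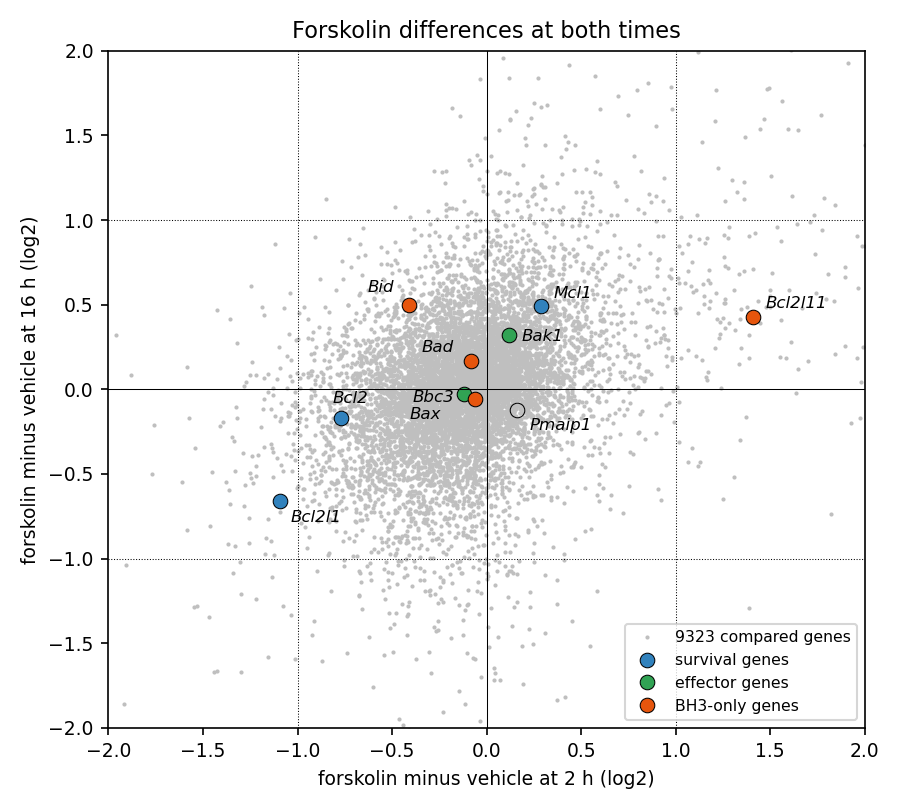
Forskolin minus vehicle log2 signal at 2 h (horizontal axis) and 16 h (vertical axis) for the 9323 compared genes (grey) and the 10 members (blue survival, green effector, orange BH3-only; the open circle is Pmaip1, which was below the filter); dotted lines mark 2-fold, and 75 genes lie outside the axes. Bcl2l11 (1.41 and 0.43) lies right of the 2-fold line and Bcl2l1 (-1.09 and -0.66) left of it.

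Bid differed in opposite directions at the 2 times. BID links death receptors to mitochondria: it is cut by caspase 8 and the fragment activates BAX and BAK. Its signals were 6.03 with vehicle and 5.62 with forskolin at 2 h, and 6.18 and 6.68 at 16 h. The log2 differences were -0.41 and 0.50, so that the forskolin arrays differed from each other by 1.06 and the vehicle arrays by 0.15. The later minus the earlier difference was 0.90, and 393 of 9323 compared genes (4.22%) had a value as high or higher. Values both as low at 2 h and as high at 16 h as those of Bid were present in 59 genes (0.633%). Opposite signs as such were common, at 39.7% of compared genes.

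The other BH3-only genes stayed near vehicle. Bad, whose product is held inactive by phosphorylation, including by protein kinase A, had signals of 6.09 and 6.01 at 2 h and of 6.03 and 6.20 at 16 h. Its differences were -0.08 and 0.17, and the first became 0.09 or 0.05 under the other scalings. Bbc3, a p53 target gene that also responds to endoplasmic reticulum stress, had signals of 4.99 and 4.94 at 2 h and of 5.24 and 5.18 at 16 h. Its differences were -0.06 at both times, with the earlier one at 0.09 or 0.07 under the other scalings, and its vehicle arrays differed by 0.25. Pmaip1, whose product NOXA binds MCL1, had signals of 3.07, 3.23, 3.17 and 3.05 on the vehicle and forskolin arrays of 2 h and then of 16 h. These lay below the median of the negative controls on all 4 arrays, so its differences of 0.16 and -0.12 are between signals at background.

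Over all 10 members the median difference was -0.07 at 2 h, with 4 above 0, and 0.07 at 16 h, with 5 above 0. The medians of the compared genes were -0.10 and 0.02. In 5 of 9 compared members both forskolin arrays lay outside both vehicle arrays, higher for Bcl2l11 and Mcl1 and lower for Bcl2, Bcl2l1 and Bax. This was true of 41.3% of compared genes, so it does not set the family apart.

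The only test in this design combined both times, with limma fitted to all 4 arrays with treatment and time as additive terms. Its adjusted p was below 0.05 for 111 of 9323 genes (1.19%) and for 0 of 9 members. The count over all genes was unstable, with 3 genes after cyclic loess, 12 without the time term and 206 under the stricter filter, and the members numbered 0 in each of these fits. Bcl2l1 had a mean log2 difference of -0.88 ± 0.24 (SE) with a limma adjusted p of 0.138, and Bcl2l11 had 0.92 ± 0.28 with a limma adjusted p of 0.181. These 2 were also the only members with an unadjusted p under 0.05 (0.00477 and 0.00977). For Bcl2, at -0.47 ± 0.24, the limma adjusted p was 0.427, and for Mcl1, at 0.39 ± 0.26, it was 0.56. In the other 5 members of the fit the adjusted p was between 0.712 and 0.966. A gene's own error in this fit is the disagreement of its differences between the times, with 1 residual degree of freedom, and most of the error used comes from the prior over all genes, with 7.88.

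The remaining family members and neighbours of the pathway were described from lists. Of 15 other BCL2 family and BH3 genes, 8 were compared. At 2 h 0 of these passed 2-fold, against 3.5% of all compared genes. At 16 h 1 was higher and 0 lower, where 2.33% of all compared genes were higher and 2.02% lower. Their medians were 0.23 and -0.01, against -0.13 and 0.0 over all 15, those below the filter included. Bnip3, a mitophagy receptor gene, had signals of 8.54 and 8.73 at 2 h and of 8.15 and 9.48 at 16 h, a 2.51-fold higher level at the later time. Hrk, a BH3-only gene known from neurons, had log2 differences of 0.70 and -0.12. Bok, a relative of Bax and Bak1, had 0.27 and -0.81, and Bnip2 had 0.50 and 0.20. The survival gene Bcl2l2 (BCL-W) differed by -0.13 and 0.06. Bcl2a1, Bcl2l10 and the BH3-only genes Bik and Bmf were below the filter, with signals of at most 3.87.

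Of 17 measured genes of the mitochondrial pathway below BAX and BAK, 14 were compared, and 1 was 2-fold higher at 2 h and 0 at 16 h, with 0 lower at either time. Of all compared genes, 2.09% were 2-fold higher at 2 h and 2.33% at 16 h. The list medians were 0.17 and 0.30, against 0.07 and 0.15 over all 17, those below the filter included. The gene past 2-fold was Dffb, which encodes the caspase-activated DNase: its signals were 4.92 and 6.05 at 2 h and 4.80 and 4.37 at 16 h. All but the 6.05 were close to the upper quartile of the negative controls (4.37 to 4.57), which limits what this difference can show. Differences of 0.45 for Diablo, which encodes the IAP antagonist SMAC, and 0.52 for the channel gene Vdac2 were seen at 16 h, after 0.07 and 0.16 at 2 h.

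In the death receptor branch that feeds BID, 6 of 10 genes were compared, with 1 higher by 2-fold and 0 lower at each time. Of all compared genes, 2.09% were 2-fold higher at 2 h and 2.33% at 16 h. The list medians were -0.04 and 0.42, against -0.15 and 0.08 over all 10, those below the filter included. Cflar encodes c-FLIP, which blocks caspase 8 at the receptor. Its signals were 5.59 and 6.60 at 2 h and 5.88 and 6.54 at 16 h, or 2.02-fold and 1.58-fold higher, with a limma adjusted p of 0.125. The TWEAK receptor gene Tnfrsf12a had 1.5-fold (2 h) and 2.55-fold (16 h) higher signals (limma adjusted p 0.0979). The TNF receptor gene Tnfrsf1a had log2 differences of -0.68 at 2 h and 0.78 at 16 h, the order of signs seen for Bid. Ripk1, the receptor-associated kinase gene, had -0.35 and 0.00. Casp8 itself had signals of 3.02 to 3.23, about those of the median negative control.

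Among binding partners and turnover factors of the family, 11 of 12 measured genes were compared and 0 passed 2-fold at either time (medians 0.02 and 0.14). By comparison, 3.5% of all compared genes passed it at 2 h and 4.34% at 16 h, so a count of 0 in 11 does not set this list apart. The differences with the greatest size were 0.53 for the calcium channel gene Itpr1 at 2 h and 0.38 for the co-chaperone gene Bag1 at 16 h. Dynll2, whose product tethers BMF to the cytoskeleton, had 0.28 and 0.33. Ywhab, a 14-3-3 gene of the kind that holds phosphorylated BAD, had -0.32 and 0.08.

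The list of kinases and transcription factors that act on the family had 19 of 20 genes compared, with 2 higher and 1 lower by 2-fold at 2 h and 0 higher and 1 lower at 16 h. Its medians were near 0 (0.00 and 0.04). Over all compared genes, 2.09% were 2-fold higher and 1.41% lower at 2 h, and 2.33% higher and 2.02% lower at 16 h. Ddit3 encodes CHOP, a stress factor known in mice as an activator of Bcl2l11. Its signals were 5.76 and 7.30 at 2 h and 6.09 and 7.05 at 16 h, and it was the only gene of this list to pass the limma test (1.25 ± 0.22, adjusted p 0.0348). This call was lost under 5 of the 6 other settings of the fit, with limma adjusted p of 0.12 to 0.183, and held under the stricter filter (0.014). Atf4, its activator, had log2 differences of 1.25 and 0.42. Foxo1, a forkhead factor gene, had signals of 6.43 and 5.10 at 2 h, a 2.52-fold lower level, and of 5.81 and 5.51 at 16 h, while its vehicle arrays differed by -0.62. Foxo3, the forkhead gene best known as an activator of Bcl2l11, had differences of -0.02 and -0.27. Myc went from 0.58 at 2 h to -1.19 at 16 h.

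**Figure D4:**
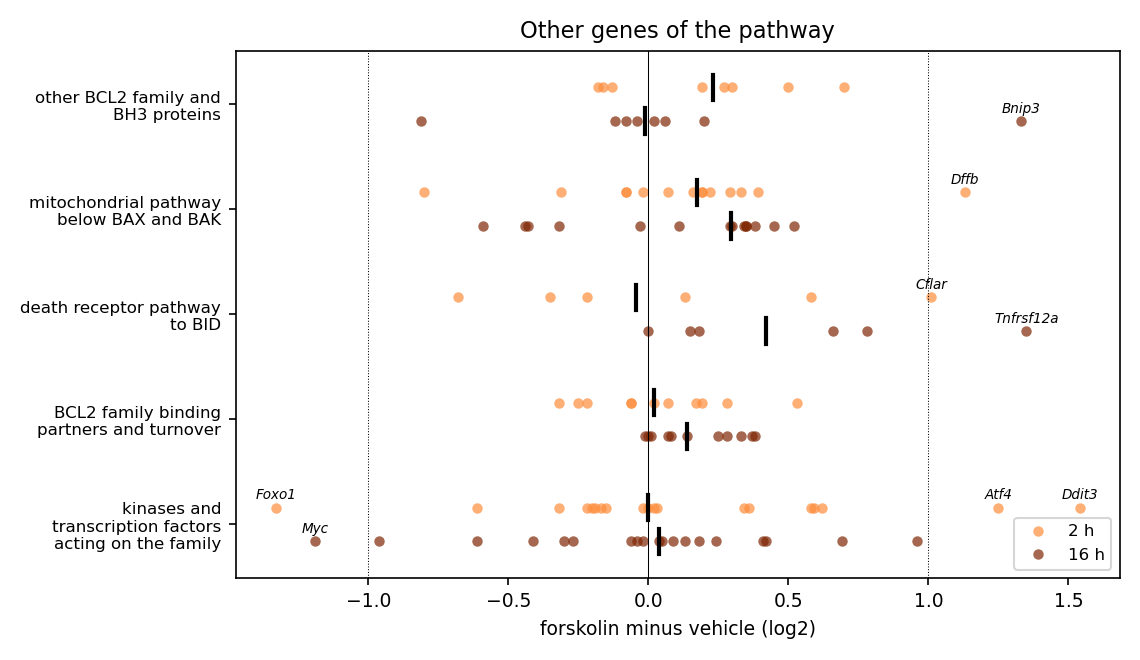
Forskolin minus vehicle log2 signal (horizontal axis) at 2 h (orange) and 16 h (brown) for the compared genes of 5 lists; each point is a gene from 1 array per group, black bars are list medians, dotted lines mark 2-fold and genes past it are named. Ddit3 (1.54), Atf4 (1.25), Dffb (1.13) and Cflar (1.01) lie above 2-fold at 2 h, and Bnip3 (1.33) and Tnfrsf12a (1.35) at 16 h.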

How the data were processed

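RNA of INS-1 cells from 4 groups (vehicle or 10 µM forskolin, 2 h or 16 h) was hybridized to 1 array each. The authors deposited log2 signals made by gene-level RMA, per the file headers, in Affymetrix Expression Console 1.1.1, per the submitters' processing notes. This step removes background, gives all arrays the same distribution and joins the probes of a probe set. The authors also deposited linear intensity values and a linear fold (ratio) of forskolin over vehicle, used only as a check: for Bcl2l11 at 2 h the authors' deposited table gives 2.67. The tables of both times were joined on probe set. Of 29214 probe sets, 20412 were named, with symbols updated by accession, symbol or synonym through a GRCr8 gene table, which left 18646 genes; the probe set with the highest mean stood for a gene. The filter kept 9323 genes, forskolin arrays included.

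Differences carry no test. limma 3.58.1 (R 4.3.3, eBayes with a trend, prior degrees of freedom 7.88, Benjamini-Hochberg) was fitted to all compared genes. The number of arrays limits the precision, and nothing says that cultures were replicated. Genes named are the 10 members and, per list, up to 4 compared genes with the largest difference and those past 2-fold; the low family genes, Bcl2l2, Casp8 and Foxo3 were added after their values were seen. 1 gene that meets this rule is not reported here. Members and lists were chosen with earlier results of these data known. Alternatives were other thresholds, filters, scalings, probe sets, value tables and limma settings.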

Additional observations from a re-analysis of the deposited data

Results flagged for a closer look

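The differences of 3 members had opposite signs at 2 h and 16 h, 1 array against 1 at each time, and this was not tested. Bid had log2 differences of -0.41 and 0.50, Bad of -0.08 and 0.17, and Pmaip1, at background, of 0.16 and -0.12. Opposite signs were present in 39.7% of compared genes. Bad was above 0 at both times under the other scalings, at 0.09 or 0.05 at 2 h.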

How the results depend on the processing

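No paired analysis was possible because each group has 1 array, so no replicate numbers could pair samples; the time term of the limma fit matches forskolin to vehicle within a time. Of 64 member differences recomputed under other scalings, probe sets or the series value table, 63 moved by less than the 0.252 SD between vehicle arrays, and 5 turned sign, all under 0.15 in size. The exception was Bcl2l1 at 2 h on its other probe set (-0.68). The series value table holds the same signals to within 5e-05, so recomputing from it could not move a difference and adds nothing to this count. The 2 members past 2-fold at 2 h became 1, Bcl2l11, under the stricter filter (6.355 log2 units, which left 4 members), cyclic loess, a further quantile normalization, the mean of the probe sets, and the other probe set of Bax and Bcl2l1, the last tried after the data were seen. The stricter filter kept Bcl2l11 only through its forskolin signal at 2 h (6.49) and dropped Bcl2l1 by its level, so it tests neither call. At 1.5-fold the count of 2 became 3. At 16 h the count of 0 became 1, Bcl2l1, at 1.5-fold, alone or with either scaling, combinations tried after the data were seen. Over all genes, the 326 past 2-fold at 2 h (195 higher, 131 lower) were 216 under the stricter filter, 1251 at 1.5-fold (436 higher, 815 lower), 1059 with cyclic loess added (612 higher, 447 lower) and 1070 with quantile normalization added (557 higher, 513 lower), so the excess of lower genes turned to one of higher genes. At 2-fold the split was 249 higher and 74 lower after cyclic loess and 224 and 88 after the quantile step. The 405 at 16 h were 1348 at 1.5-fold, and 1332 and 1351 with these scalings. The limma count of 111 genes was 38 without a trend, 12 without the time term, 22 without a filter, 206 under the stricter filter, 3 after cyclic loess and 24 after the quantile step; the cause was not tested. Of the members, 0 passed in any of these fits. Most member signals, with all those of Bcl2, Bcl2l1 and Bcl2l11, lie under the 95th percentile of the negative controls, so small differences are poorly resolved.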
